A study of Glycine max with 8 samples.

Results

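COL1b, a soybean CONSTANS-like gene, was followed in mature leaves of 2 lines, the wild type (WT) and the line OX5. It is the 1 gene with a row in the table used here among 4 chosen by name, the CONSTANS-like genes COL1a, COL1b, COL2a and COL2b. The table lists 31785 genes in all. COL1b is the locus Glyma.18G278100.Wm82.a4.v1, on chromosome 18 according to its ID. COL1a (Glyma.08G255200.Wm82.a4.v1, chromosome 8), COL2a (Glyma.13G050300.Wm82.a4.v1, chromosome 13) and COL2b (Glyma.19G039000.Wm82.a4.v1, chromosome 19) were not analysed here, and nothing is said of their levels.

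CONSTANS-like proteins are nuclear regulators with B-box zinc fingers and a CCT domain. In Arabidopsis, CONSTANS is the link between the circadian clock and flowering: its transcript follows a daily rhythm in leaves, light stabilises its protein, and in long days it switches on the florigen gene FT. Soybean is a short-day plant, and its close CONSTANS relatives COL1 and COL2 also have a daily rhythm in leaf transcript. COL1a and COL1b are duplicate copies, and COL1a is known there as a repressor of flowering in long days.

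Each line had 4 sequencing libraries of leaf messenger RNA (Glycine max, sufficient phosphorus, R6 stage, when pods hold full-size green seeds). OX5 is given only as a line name, so its altered gene, the promoter that drives it and the number of transformation events behind it are not known here, and no targeted gene was checked. No time of day, plant age in days, plant number or pooling is given either, so p-values may measure technical spread only. Levels are FPKM, that is, fragments divided by gene length in kilobases and scaled to the fragments counted per library, as the authors made them. Whole reads recovered from these values numbered 17553649 to 19175800 per library over the listed genes. The IDs carry no gene names, so leaf identity was not checked against marker genes and the other photoperiod genes were not examined.

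COL1b transcript was scarce to moderate in leaves of both lines, and its mean was higher in WT than in OX5. Its level across the WT libraries, replicates 1 to 4, was 7.25, 6.43, 4.29 and 1.46 FPKM. Across the OX5 libraries, in the same order, it was 2.2, 0.986, 1.79 and 1.20 FPKM. WT replicates 1, 2 and 3 were above every OX5 library, while WT replicate 4 lay inside the OX5 range, above 2 of the 4 OX5 libraries and below the other 2. In 14 of the 16 pairs of a WT and an OX5 library, the WT library had the higher value. The WT mean was 4.86 ± 2.59 FPKM and the OX5 mean 1.54 ± 0.554 FPKM (SD, n = 4 each), so WT was 3.15-fold higher by the means.

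The difference between the lines did not pass the test across all genes. The COL1b log2 fold change, OX5 minus WT, was −1.09 on the log2(FPKM + 1) scale (SE 0.36, 95% interval −1.91 to −0.27). Its unadjusted limma p was 0.0152 and its Benjamini-Hochberg adjusted p was 0.132 over 30424 genes tested. This corresponds to 2.13-fold on that scale, which averages log values and adds 1 FPKM, whereas the 3.15-fold ratio is of FPKM means. With 0.1 FPKM added, the log2 fold change was −1.44. Of all genes tested, 1.01% were lower in OX5 at an adjusted p under 0.05 and 8.71% at an unadjusted p under 0.05. A log2 fold change as low as that of COL1b or lower was found in 1.69% of genes, and 5.35% had every OX5 value below every WT value, which COL1b did not. An exact two-sided permutation test of the 8 COL1b values gave p = 0.0857, where 70 relabellings allow a smallest p of 0.0286. In whole leaves, fewer cells with the transcript and less transcript per cell cannot be told apart.

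**Figure D1:**
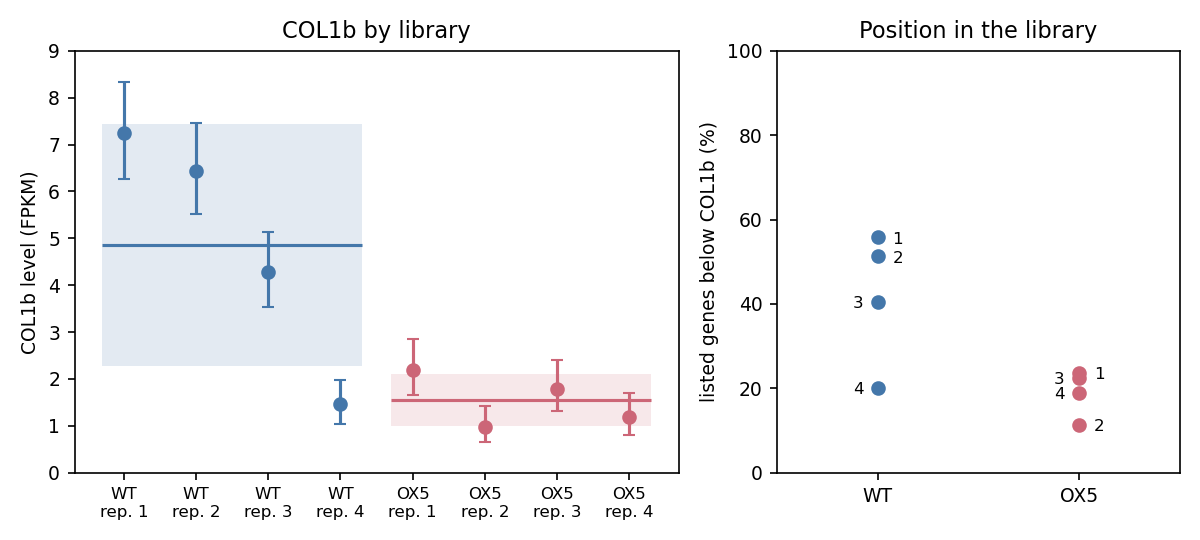
Left, COL1b level in FPKM in each library; bars are exact 95% Poisson intervals of the reads, lines are line means and shaded bands are 1 SD. Right, the percentage of listed genes with a lower FPKM than COL1b in the same library, with replicate numbers beside the points. WT replicates 1 to 3 (4.29 to 7.25 FPKM) stand above every OX5 library (0.986 to 2.2 FPKM), and WT replicate 4 (1.46 FPKM) stands among them.

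Leaving out WT replicate 4, the WT library inside the OX5 range, brought COL1b past the threshold. Removing that value by itself widens the difference and narrows the WT spread, so the pass is not separate evidence. Without it, COL1b gave −1.46 on the log2 scale (SE 0.23) with a limma adjusted p of 0.0371, and the ratio of the means was 3.88. In that fit 0.542% of genes were lower in OX5 at an adjusted p under 0.05. With any other single library left out, the COL1b adjusted p lay between 0.163 and 0.269. COL1b also passed when libraries were weighted by their quality (log2 fold change −0.95, SE 0.28, limma adjusted p = 0.0329), a fit in which 11.2% of genes were called lower. Those weights were estimated from the same expression values. By p, COL1b ranked 7691 among the 30424 genes in the weighted fit and 3485 in the reported fit. The direction was the same, lower in OX5, in all 20 alternative fits. Their log2 fold changes ran from −1.53 for limma-voom on recovered reads to −0.88 without WT replicate 1. These fits reuse the same COL1b values, so their shared direction is not independent support.

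**Figure D2:**
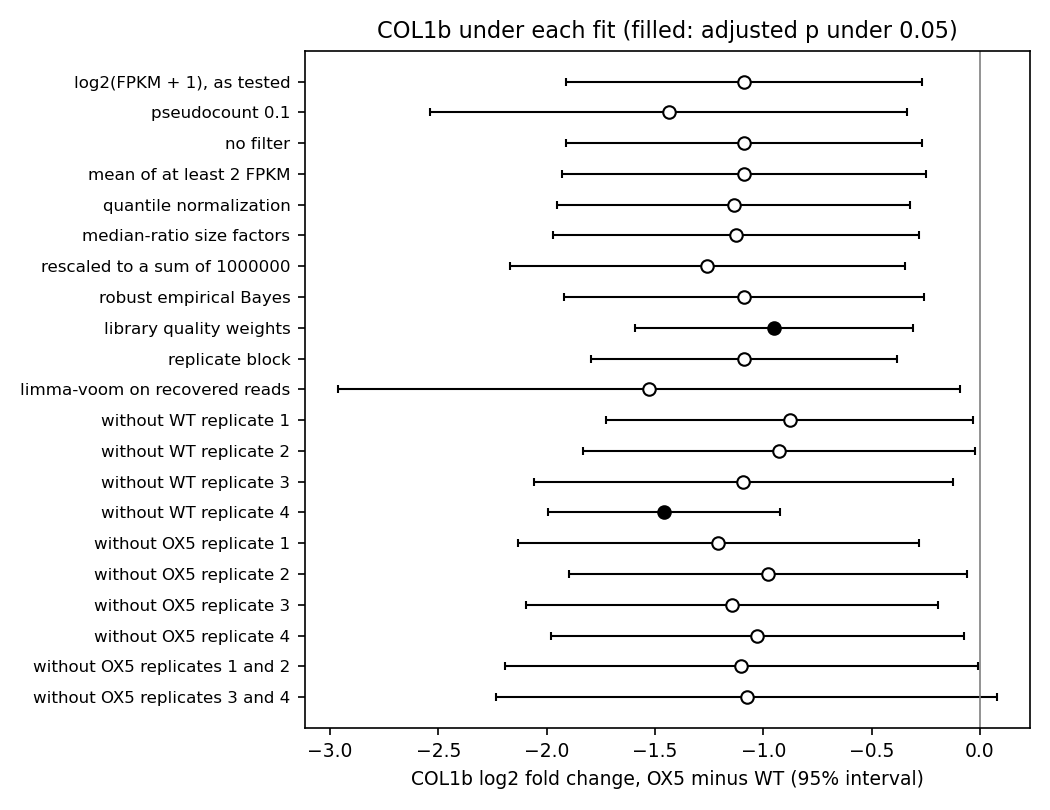
COL1b log2 fold change, OX5 minus WT, with its 95% interval under the reported fit and each of 20 alternatives; filled points have an adjusted p under 0.05. All 21 points lie below 0, and the 2 filled ones are the fit with library quality weights and the fit without WT replicate 4. The interval without OX5 replicates 3 and 4 reaches above 0 (−2.23 to 0.079). All fits draw on the same libraries.

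COL1b rested on few reads in the OX5 libraries and in WT replicate 4. The steps in its FPKM values correspond to a counted length of 1424 bases, at which 1 read was worth 0.0365 to 0.0399 FPKM. Behind the WT levels, in replicate order, were 196, 174, 115 and 40 reads. Behind the OX5 levels were 57, 27, 45 and 30 reads. WT replicate 4 had an exact 95% Poisson interval of 1.04 to 1.99 FPKM, apart from the intervals of all 3 other WT libraries and overlapping those of all 4 OX5 libraries. WT replicate 3, the next lowest WT library, had an interval of 3.54 to 5.14 FPKM, which overlapped none of the other 7. Only WT replicates 1 and 2 had overlapping intervals among the WT libraries. These intervals cover counting error only. Reads that COL1b shares with its duplicate COL1a may have been split between them or dropped, since the treatment of shared reads is not given in the sources used here.

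Beside genes of similar mean level, spread of COL1b between libraries was wide in WT and ordinary in OX5. The WT levels covered a 4.96-fold range and the OX5 levels a 2.23-fold range. The variance of depth-scaled COL1b reads was 37.3 times their mean in WT and 5.14 times in OX5, where counting error alone gives a ratio near 1. Among 9967 tested genes of similar level, with a mean of 1.60 to 6.40 FPKM over the 8 libraries, the median SD of log2 values was 0.230 in WT and 0.292 in OX5. COL1b had an SD of 0.790 in WT, above 96.7% of these genes, and of 0.314 in OX5, above 54.4% of them. Both the variance ratio and the SD of log2(FPKM + 1) depend on level, and the OX5 mean of COL1b, 1.54 FPKM, lay below that range. As a share of the mean, the SD in FPKM was 53.2% in WT and 35.9% in OX5, which are closer to each other. The difference in spread between the lines was not tested.

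**Figure D3:**
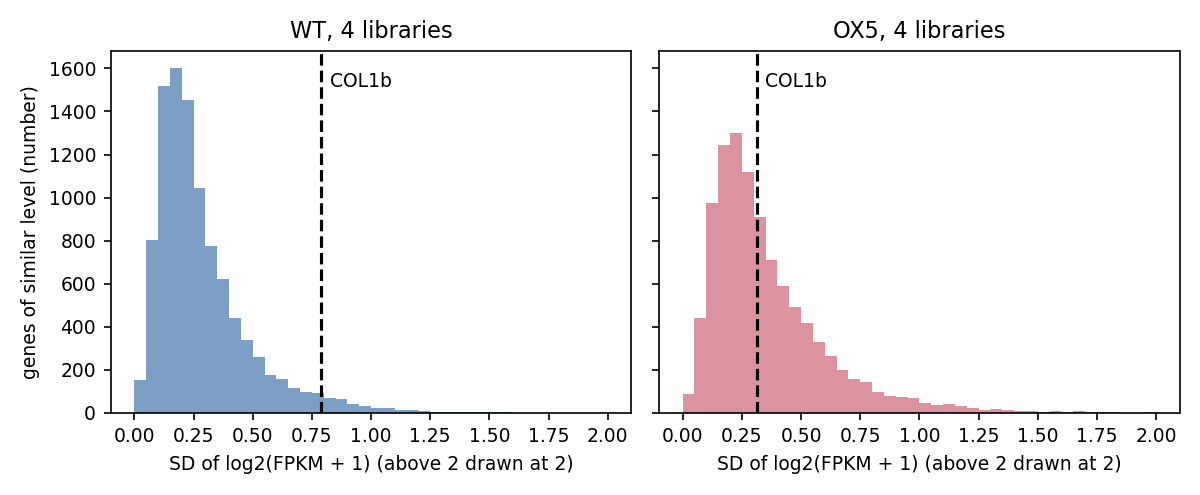
Number of genes of similar level (mean of 1.60 to 6.40 FPKM) by the SD of log2(FPKM + 1) over the 4 libraries of WT, left, and OX5, right; the dashed line is COL1b. COL1b stands in the upper tail in WT (SD 0.790) and near the middle in OX5 (SD 0.314).

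WT replicates 1 and 4, which held the highest and lowest WT levels of COL1b, also stood at opposite ends of a component of the whole table. On the third principal component of the tested genes, with 17.0% of the variance, they scored −55.4 and 56.5, and the other 6 libraries lay between −4.45 and 16.2. A highest WT value in replicate 1 with a lowest in replicate 4 was shared by 4655 genes (15.3% of those tested), and the opposite arrangement by 6337 (20.8%). An even spread over the 12 possible pairs of highest and lowest WT library would give 8.33% each, and the rarest pair held 3.15%. With a log2 range at least as wide as that of COL1b, the first arrangement was shared by 543 genes (1.78%), COL1b included. The part of this split in the COL1b result was not tested. On the first component, with 44.8% of the variance, the WT libraries scored −40.5 to −23.2. There OX5 replicates 1 and 2, at 69.8 and 88.6, stood apart from OX5 replicates 3 and 4. The latter, at −12.6 and −19.8, lay nearer the WT libraries. COL1b did not follow that division: its highest and lowest OX5 levels were those of replicates 1 and 2. Without OX5 replicates 1 and 2 its log2 fold change was −1.10 (limma unadjusted p = 0.0489, adjusted p = 0.245). Without OX5 replicates 3 and 4 it was −1.08 (limma unadjusted p = 0.0634, adjusted p = 0.168), with an interval that included 0 (−2.23 to 0.079). The second fit thus had the lower adjusted p but the higher unadjusted p. By p, COL1b ranked 6057 in the first of these fits and 11518 in the second, which called 242 and 5503 genes.

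Relative to other transcripts in the same leaf, COL1b ranked mid-table in most WT libraries and low in OX5. In WT replicates 1 to 4, 55.8%, 51.3%, 40.5% and 20.1% of listed genes had a lower FPKM than COL1b. The corresponding shares in OX5 replicates 1 to 4 were 23.6%, 11.4%, 22.5% and 18.9%. A rank within a library does not depend on how that library was scaled, and by rank too WT replicate 4 lay among the OX5 libraries.

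Tested loci next to COL1b on chromosome 18, taken in order of ID as 2 on each side, did not share one pattern. The locus before it, Glyma.18G278000.Wm82.a4.v1, had a mean of 3.02 ± 0.203 FPKM in WT and 2.77 ± 0.386 FPKM in OX5 (SD, n = 4 each; limma adjusted p = 0.70). The locus after it, Glyma.18G278400.Wm82.a4.v1, had its highest value in WT replicate 4, at 6.0 FPKM, where COL1b was at its WT lowest. Its mean was 4.43 ± 1.14 FPKM in WT and 3.11 ± 0.758 FPKM in OX5 (SD, n = 4 each), a change of −0.40 on the log2 scale with a limma adjusted p of 0.279. The second locus before COL1b, Glyma.18G277300.Wm82.a4.v1, stood at 114.5, 86.0, 95.3 and 65.7 FPKM over the WT libraries, again in replicate order, and at 58.4, 44.0, 66.8 and 58.2 FPKM over the OX5 libraries. Like COL1b it was highest in WT replicate 1 and lowest in OX5 replicate 2, and WT replicate 4 lay within the OX5 range. The change of this locus, −0.65 on the log2 scale (SE 0.19), had a limma adjusted p of 0.101. The second locus after COL1b, Glyma.18G278800.Wm82.a4.v1, differed by 0.20 on the log2 scale, higher in OX5, with a limma adjusted p of 0.434. It too had its highest value in WT replicate 4, at 118.1 FPKM. None of these 4 loci passed, where 2.40% of all genes did in either direction. They were taken by position, and the files give them no name or function.

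Of 18001 other genes averaging 5 FPKM or more, the one whose log2 values most resembled those of COL1b over the 8 libraries was Glyma.04G253500.Wm82.a4.v1 on chromosome 4, at a Pearson r of 0.990. Its WT libraries stood at 9.08, 8.72, 8.04 and 6.0 FPKM and its OX5 libraries at 6.08, 5.31, 6.13 and 5.74 FPKM, each in replicate order. Its range was narrower than that of COL1b, but WT replicate 4 again lay within the OX5 range. It differed by −0.38 on the log2 scale (SE 0.14), with a limma adjusted p of 0.165. An r of at least 0.9 with COL1b was reached by 79 of these genes and an r of −0.9 or less by 98. These are descriptions over 8 libraries that share the division by line, and the locus was chosen as the highest of many.

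**Figure D4:**
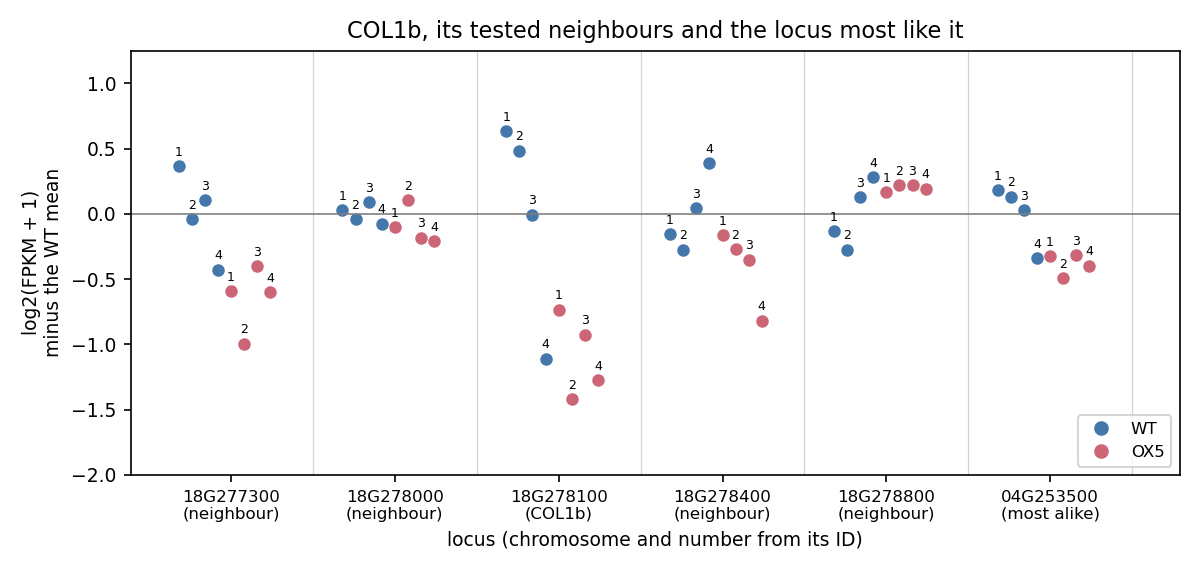
Log2(FPKM + 1) minus the WT mean of each locus for COL1b, the 4 tested loci around it on chromosome 18 and the locus most like it; each point is a library, with its replicate number above. COL1b and the most similar locus both have WT replicate 4 beside the OX5 libraries, while 18G278400 has it as the highest point.

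RefSeq names do not settle the identity of COL1b further. The RefSeq gene table of the assembly Glycine_max_v4.0 has 15 genes with a COL symbol or synonym, of which 1, COL2B (synonym COL2c), is on chromosome 18, at bases 56236082 to 56238737. The same table calls a chromosome 8 gene COL2A and gives COL1a among its synonyms, so COL numbers differ between naming schemes. No row of that table carries a Glyma ID, and COL2B was therefore not equated with Glyma.18G278100.Wm82.a4.v1.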

How the data were processed

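The authors deposited 1 table of FPKM with 1 column per library; 1 row without a gene was left out, and 0 per-sample columns went unused. Per the submitters' processing notes, HTSeq 0.6.0, HISAT2 2.1.0, Bowtie2 2.2.3, TopHat2 and CASAVA were used, with roles, build and strand setting not given in the sources used here. Chromosomes were read from IDs.

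FPKM values with 4 decimals are whole multiples of 1 read at each gene. Solving for whole lengths gave whole reads for 100% of 31785 genes (distance from a whole number allowed up to 0.2 reads, largest found 0.0164). The solver was tested on simulated data.

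The test was limma 3.58.1 (R 4.3.3), trended empirical Bayes on log2(FPKM + 1), for the 30424 genes averaging 0.5 FPKM or more, Benjamini-Hochberg adjusted, threshold 0.05. Groups came from sample titles. The alternative fits changed pseudocount, filter, scaling, variance model, threshold, block, reads and libraries. The exact permutation test, the spread, the neighbours and the WT pattern were chosen after seeing the data. Genes were named by a rule: the 4 chosen by name and, per analysed gene, the most correlated other gene. Members and lists were chosen with earlier results of these data known. A list of 23 photoperiod loci and 2 leaf markers was not used, since no source pairs the IDs with names. Within-pair ratios were not computed, as only COL1b of the 4 genes has a row in the table used here. Python 3.11.15, numpy 2.4.6, scipy 1.17.1, pandas 2.3.3, numba 0.67.0 and matplotlib 3.10.9 were used.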

Additional observations from a re-analysis of the deposited data

How the results depend on the processing

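COL1b was lower in OX5 in all 20 alternative limma fits, which reuse the same libraries. It was past the threshold in 2: library quality weights (log2 fold change −0.95, limma adjusted p = 0.0329) and without WT replicate 4. Leaving out 1 library gave −1.46 to −0.88, lowest without WT replicate 4. Adjusted p over all fits ran from 0.0329 to 0.269. Without WT replicate 4 the SE was 0.233, against 0.364 in the reported fit. With quality weights COL1b ranked 7691 by p, against 3485 in the reported fit, while 9504 genes were called. What sets WT replicate 4 apart was not tested.

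Over the whole table, 729 genes were called, 57 at the adjusted p of 0.01. Quality weights called 9504. Without OX5 replicates 1 and 2 the number was 242, and without OX5 replicates 3 and 4 it was 5503. Leaving out WT replicates 1, 2, 3 or 4 gave 428, 188, 58 and 334 calls, and leaving out OX5 replicates 1, 2, 3 or 4 gave 101, 160, 761 and 392. The cause was not tested.

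A block for replicate number left 56 calls, and COL1b stayed at −1.09 (limma adjusted p = 0.134). Deviations of same-numbered libraries correlated at −0.056, 0.071, 0.128 and −0.061, so the numbers were not taken to pair samples; some libraries correlated best with another number.

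At 27 to 57 reads, the OX5 levels and that of WT replicate 4 have the largest counting error relative to their size.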
